A study of Mus musculus with 10 samples.

Results

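The sterol genes under the transcription factor SREBP2 were described in mouse liver: Hmgcs1, Sqle, Srebf2, Insig1, Idi1, Lss and Cyp51. These 7 genes, of 19271 in the deposited table, were taken by name from the pathway, and their 13 RefSeq transcripts were summed to genes. The name of the set speaks of synthesis and uptake. However, 5 members are enzymes of synthesis and 2 are regulators, so none is an uptake receptor. Liver RNA was taken at an age of 2 months from 10 C57BL6/N mice that carried S400D, a serine-to-aspartate change in the mitochondrial protease HtrA2/Omi, on both alleles, on 1 or on none. The animals were 3 homozygous males (S400D/S400D), 1 homozygous female (S400D/S400D), 3 heterozygous males (S400D/WT) and 3 wild-type males (WT/WT). The labels name no agent given to the animals, no method by which the mutation was made, no feeding state and no hour of collection. The mutated gene, Htra2, had 13.7 to 15.6 CPM (reads scaled to a common library size) in the homozygous, 15.2 to 16.7 CPM in the heterozygous and 12.3 to 17.3 CPM in the wild-type animals, so its level did not tell the genotypes apart and cannot check the labels of a point mutation. The comparisons between genotypes ask what the S400D protease changes in liver on 1 or both alleles.

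Cholesterol is built from acetyl-CoA through mevalonate and squalene. When sterols in the endoplasmic reticulum are low, the escort protein SCAP carries SREBP2 to the Golgi, where it is cleaved, and the released part enters the nucleus and switches on genes of sterol synthesis and uptake. When sterols are plentiful, INSIG proteins hold SCAP back. In the liver the pathway also follows feeding, insulin and the daily rhythm.

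The promoters of 6 of the 7 members were at hand from RefSeq (GRCm38.p6), as windows of 300 bases from 250 before to 50 after the start of transcription. They are shown because SREBP2 binds sterol regulatory elements (SRE) there, usually with the factors NF-Y, which reads CCAAT, and Sp1, which reads GGGCGG. The motifs were searched on both strands. CCAAT stood in 6 of 6 member windows and in 37.4% of all 32851 windows of this length, and GGGCGG in 6 of 6 and in 35.7%. The SRE core TCACNCCAC stood in 1 of 6, that of Hmgcs1, and in 1.24% of all windows. The shorter CACNCCAC, which lies within it, stood in 2 of 6 (Hmgcs1 and Insig1) and in 6.24%. The E-box CACGTG stood in 1 of 6 (Insig1) and in 7.15%. The letters ATCACCCCA, searched for after the windows had been read, stood in the Srebf2 window and in 0.28% of all windows. A match is only a string of letters in this window. The bases before the start are printed 5′ to 3′ for Hmgcs1 (chr13:119690101-119690350, plus strand) and Srebf2 (chr15:82147019-82147268, plus strand). Capitals mark TCACNCCAC in Hmgcs1, ATCACCCCA in Srebf2, which matches neither SRE pattern searched, and CCAAT, which reads ATTGG on this strand.
Hmgcs1: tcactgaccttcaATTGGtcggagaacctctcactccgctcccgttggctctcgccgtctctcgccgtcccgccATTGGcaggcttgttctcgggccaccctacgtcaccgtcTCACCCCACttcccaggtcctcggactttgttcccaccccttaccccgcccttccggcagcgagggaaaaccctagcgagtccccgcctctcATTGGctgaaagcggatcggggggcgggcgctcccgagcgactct
Srebf2: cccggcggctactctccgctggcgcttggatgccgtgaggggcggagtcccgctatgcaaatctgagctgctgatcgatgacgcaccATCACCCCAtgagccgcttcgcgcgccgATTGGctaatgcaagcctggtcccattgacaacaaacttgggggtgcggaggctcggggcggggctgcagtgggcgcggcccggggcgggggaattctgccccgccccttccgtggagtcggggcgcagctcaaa

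Each library held 16240441 to 17264289 expected counts, and a member had between 38 and 17932 reads in a library. All 7 members passed the filter on low counts. Levels are CPM scaled with TMM factors. Replicates carry a number but no stated source, and p-values therefore speak only of the spread among these libraries, which may be technical. The markers of the labelled tissue were abundant: 9 hepatocyte genes summed to 94500 to 155000 CPM in the 10 libraries. Homozygous male 1, heterozygous male 2 and wild-type male 1 stood apart from the other animals of their groups in the members. Results are therefore also given without them where they turn on them.

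The 7 genes differed widely between single animals of 1 genotype. Homozygous male 1 had the lowest level of all 10 libraries in 7 of 7 members. Wild-type male 1 had the second lowest in 6 of 7 and the lowest of the wild types in 7 of 7. Heterozygous male 2 had the highest in 6 of 7. Summed over the members, the level was 177 CPM in homozygous male 1 and 1280 and 941 CPM in homozygous males 2 and 3. It was 685 CPM in the homozygous female, 1220, 2620 and 1200 CPM in heterozygous males 1 to 3, and 606, 1510 and 1310 CPM in wild-type males 1 to 3. The homozygous, heterozygous and wild-type males thus overlapped in the sum. In bulk tissue fewer cells of a type and less RNA per cell cannot be told apart.

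**Figure D1:**
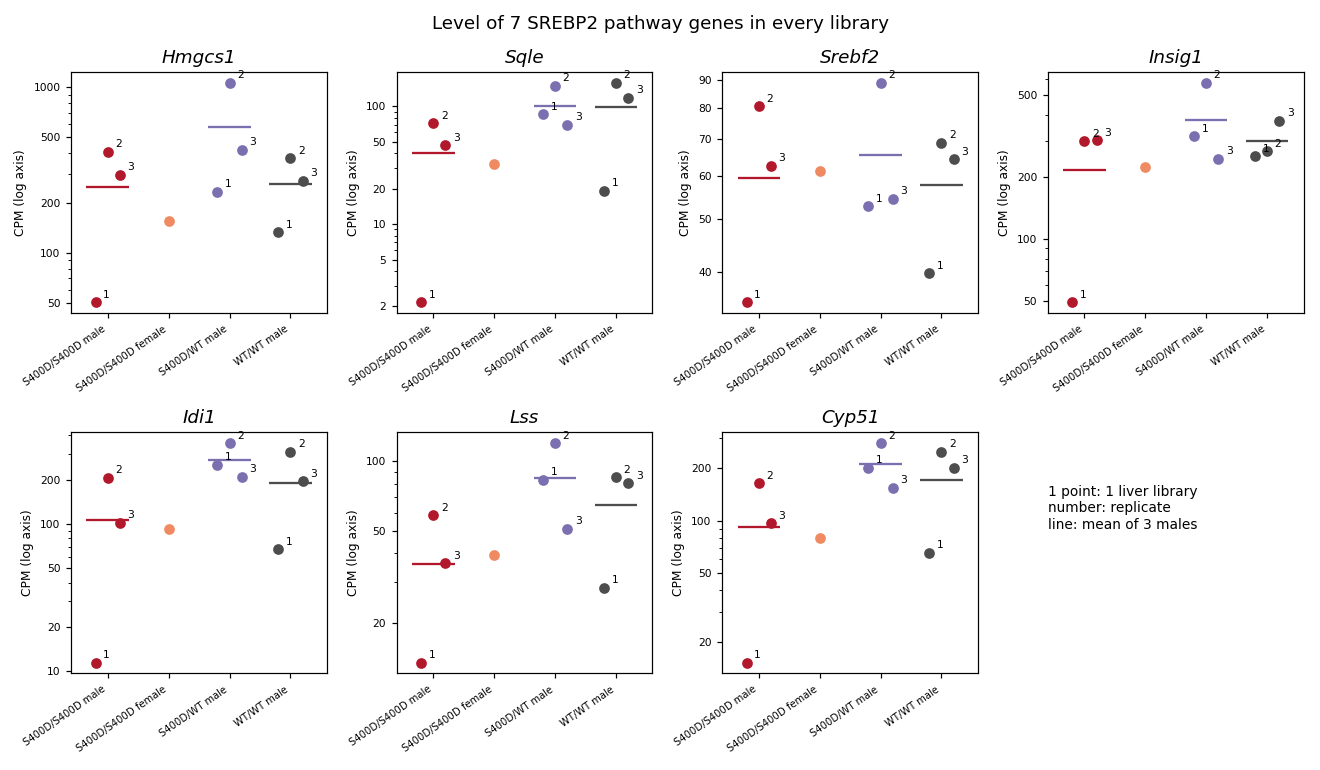
Level of each of the 7 genes in CPM on a log axis, 1 point for each liver library, with the replicate number of males beside the point and a line at the mean of 3 males. Homozygous (S400D/S400D) male 1 is the lowest point in 7 of 7 panels, and heterozygous (S400D/WT) male 2 is the highest in 6 of 7.

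Srebf2, which encodes SREBP2 itself, varied least. The gene (20788, GRCm38.p6 chromosome 15, 82147269 to 82205379) had 35.2, 80.5 and 62.6 CPM in homozygous males 1 to 3 and 61.2 CPM in the homozygous female. It had 52.8, 88.8 and 54.5 CPM in heterozygous males and 39.8, 69.0 and 64.3 CPM in wild-type males. The highest of the 10 libraries was 2.52 times the lowest, and the groups overlapped. Homozygous males averaged 59.4 ± 22.8 CPM, heterozygous males 65.4 ± 20.3 CPM and wild-type males 57.7 ± 15.7 CPM (SD, n = 3 each). Of its 2 transcripts the curated NM_033218 made up 63.8% to 81.2% of the gene in TPM, a level scaled to transcript length.

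Insig1 encodes the retention protein that holds SCAP and SREBP in the endoplasmic reticulum and is itself a target of SREBP2. The gene (231070, chromosome 5, 28071412 to 28078662) had 49.3, 298 and 301 CPM in homozygous males 1 to 3 and 223 CPM in the homozygous female. It had 315, 573 and 245 CPM in heterozygous males and 252, 267 and 374 CPM in wild-type males. Homozygous male 1 was far below all others, while homozygous males 2 and 3 lay within the wild-type range. The 3 wild types differed by 1.48-fold at most, the smallest such spread among the members. Its close relative Insig2, which is not one of the 7, had 183, 289 and 344 CPM in homozygous, 57.1, 196 and 191 CPM in heterozygous and 153, 123 and 158 CPM in wild-type males. It was therefore not low in homozygous male 1.

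Hmgcs1, the cytosolic HMG-CoA synthase at the entry to the mevalonate pathway, had the highest single value. The gene (208715, chromosome 13, 119690351 to 119708260) had 50.3, 407 and 295 CPM in homozygous males 1 to 3 and 156 CPM in the homozygous female. It had 234, 1060 and 419 CPM in heterozygous males and 133, 371 and 273 CPM in wild-type males. Heterozygous male 2 was above every other library, and the groups overlapped. Homozygous males averaged 251 ± 182 CPM, heterozygous males 570 ± 433 CPM and wild-type males 259 ± 119 CPM (SD, n = 3 each).

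Idi1 encodes isopentenyl-diphosphate isomerase, which makes the allylic isoprenoid unit. The gene (319554, chromosome 13, 8885606 to 8892396) had 11.5, 206 and 102 CPM in homozygous males and 93.2 CPM in the homozygous female. It had 252, 355 and 210 CPM in heterozygous males and 67.4, 309 and 196 CPM in wild-type males. It was the only member whose homozygous and heterozygous males did not overlap, by 206 against 210 CPM. Homozygous males averaged 107 ± 97.3 CPM, heterozygous males 272 ± 74.8 CPM and wild-type males 191 ± 121 CPM (SD, n = 3 each).

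Sqle, the squalene epoxidase and a rate-limiting enzyme of the late pathway, had the widest range of the members. The gene (20775, chromosome 15, 59315092 to 59331193) had 2.17, 71.4 and 46.6 CPM in homozygous males and 32.6 CPM in the homozygous female. It had 85.7, 149 and 69.6 CPM in heterozygous males and 19.2, 158 and 118 CPM in wild-type males. The highest library was 72.7 times the lowest. The lowest value, in homozygous male 1, rests on 38 reads, with an exact 95% Poisson interval of 1.54 to 2.98 CPM that covers counting error only. The 3 homozygous males alone spanned 32.9-fold and the 3 wild types 8.23-fold.

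Lss, which closes the oxidised squalene to lanosterol, and Cyp51, which removes a methyl group from lanosterol, ran alongside. Lss (16987, chromosome 10, 76531565 to 76557139) had 13.5, 58.4 and 36.3 CPM in homozygous males and 39.4 CPM in the homozygous female, 83.1, 120 and 51.0 CPM in heterozygous and 28.4, 85.2 and 80.4 CPM in wild-type males. Cyp51 (13121, chromosome 5, 4080674 to 4104697) had 15.3, 164 and 96.7 CPM in homozygous males and 79.6 CPM in the homozygous female, 202, 280 and 155 CPM in heterozygous and 65.3, 250 and 202 CPM in wild-type males. In both genes homozygous male 1 was lowest and wild-type male 1 came next, and the genotypes overlapped. Lss was the member with the most transcripts listed, 4. The predicted XM_006513283 took 22.7% to 41.3% of its TPM in the 9 males and 0.69% in the female. The division of reads between transcripts of 1 gene is an estimate of the authors' program.

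Per length, in TPM, the members kept a rough order. The medians over 10 libraries were 156 TPM for Insig1, 120 for Hmgcs1, 108 for Idi1, 56.9 for Cyp51, 41.4 for Sqle, 18.5 for Srebf2 and 18.1 for Lss. Idi1 lay above Cyp51 in 10 of 10 libraries. Insig1 lay above Hmgcs1 in 7 of 10 and Srebf2 above Lss in 6 of 10, so the order of these neighbours was not stable. Hmgcs1 (standard deviation 82.0% of the mean) and Sqle (66.1%) varied most in TPM and Srebf2 (28.4%) least.

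The members moved together across the animals. Over 10 libraries, Pearson's r of log2 CPM ran over the 21 pairs from 0.767 to 0.995 with a median of 0.889, and Spearman's rho from 0.503 to 0.988 with a median of 0.758. Homozygous male 1 and wild-type male 1 lay farthest from the median of the members' mean profile. Without them r ran from 0.380 to 0.975 with a median of 0.665. These are descriptions of genes measured in the same libraries.

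Homozygous males were then compared with wild-type males in a fit of all 9 males (edgeR, quasi-likelihood test, Benjamini-Hochberg adjustment over 12427 genes). Of the members 6 of 7 had a negative log2 fold change, with a median of -0.83, while 49.3% of all genes tested were negative and their median was 0.00. None of the 7 passed an adjusted p of 0.05, and 0% of all genes did. At an unadjusted p under 0.05 stood 0 of 7 members and 14.9% of all genes. The groups did not overlap in 0 of 7 members and in 20.8% of all genes. Sqle had the lowest estimate (-1.29, SE 0.98, adjusted p = 0.549), followed by Cyp51 (-0.90, SE 0.72, 0.566), Lss (-0.84, SE 0.55, 0.498) and Idi1 (-0.83, SE 0.82, 0.644). Insig1 stood at -0.46 (SE 0.57, adjusted p = 0.728), Hmgcs1 at -0.04 (SE 0.74, 0.985) and Srebf2 at 0.05 (SE 0.33, 0.960). DESeq2 called 310 genes and limma-voom 0 in this comparison, and neither called a member.

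Leaving out 1 animal moved these estimates. Without homozygous male 1, 4 of 7 members were negative, with a median of -0.30, against 6 of 7 and -0.83 with it. Sqle then stood at -0.73, Lss at -0.45, Cyp51 at -0.40 and Idi1 at -0.30, and Hmgcs1 turned to 0.44 and Insig1 to 0.01. Homozygous males 2 and 3 averaged 0.600 of the wild-type mean for Sqle and 1.35 of it for Hmgcs1, whereas homozygous male 1 was at 0.0221 and 0.194 of that mean. Wild-type male 1 acted in the other direction: without it 7 of 7 members were negative, with a median of -1.20. Without homozygous male 2 the median was -1.37 and 7 of 7 were negative. No member passed in any of these fits.

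**Figure D2:**
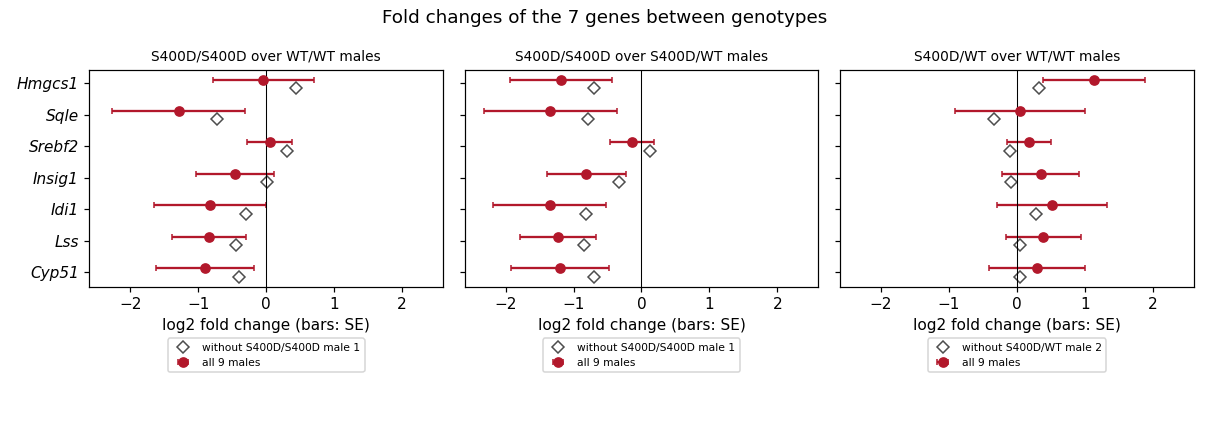
Log2 fold change of the 7 genes in homozygous over wild-type, homozygous over heterozygous and heterozygous over wild-type males. Filled points are estimates from all 9 males with their standard error, and open diamonds leave out homozygous male 1 (left and middle) or heterozygous male 2 (right); in the left panel Hmgcs1 moves across 0 to 0.44.

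Homozygous over heterozygous males gave a negative estimate in 7 of 7 members, with a median log2 fold change of -1.20, while 49.6% of all genes were negative. Again 0 of 7 passed, and 0% of all genes did. DESeq2 called 515 genes and limma-voom 0, and neither called a member. Lss had the smallest p (-1.23, SE 0.56, unadjusted p = 0.0535, adjusted p = 0.300, edgeR), and 17.2% of all genes but 0 of 7 members were under an unadjusted p of 0.05. Idi1 (-1.35, SE 0.83, adjusted p = 0.434), Sqle (-1.34, SE 0.98, 0.520), Cyp51 (-1.20, SE 0.72, 0.426) and Hmgcs1 (-1.19, SE 0.75, 0.447) had estimates of like size. Insig1 was at -0.81 (SE 0.58, 0.508) and Srebf2 at -0.14 (SE 0.33, 0.868). The groups did not overlap in 1 of 7 members, Idi1, against 11.7% of all genes that were lower without overlap. Without homozygous male 1 the median was -0.70 and 6 of 7 were negative. Without heterozygous male 2 it was -0.89 and 6 of 7 were negative, and Srebf2 was the exception in both fits, at 0.13 and 0.15.

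Heterozygous over wild-type males gave a positive estimate in 7 of 7 members, with a median log2 fold change of 0.35, while 51.6% of all genes were positive. None passed, and 0% of all genes did. At an unadjusted p under 0.05 stood 0 of 7 members and 4.19% of all genes, and DESeq2 called 7 genes and limma-voom 0, with no member. Hmgcs1 had the largest estimate (1.14, SE 0.75, adjusted p = 0.972, edgeR), and the others ran from 0.05 for Sqle (SE 0.96, 0.998) to 0.52 for Idi1 (SE 0.81, 0.977). The groups overlapped in 7 of 7 members, and 10.4% of all genes did not overlap. Heterozygous male 2 and wild-type male 1 carried this direction. Without heterozygous male 2, 4 of 7 members were positive, with a median of 0.05, and Hmgcs1 was at 0.33. Without wild-type male 1 Hmgcs1 was at 0.83, and Sqle (-0.44), Cyp51 (-0.09) and Srebf2 (-0.02) were negative. These comparisons share groups, since each group of males enters a pair of them.

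Heterozygotes were also set against the midpoint of the homozygous and wild-type males. They lay above it in 7 of 7 members, with a median log2 difference of 0.75, while 52.4% of all genes lay above. None passed, and 0% of all genes did. At an unadjusted p under 0.05 stood 0 of 7 members and 9.72% of all genes, and DESeq2 called 69 genes and limma-voom 0, with no member. Hmgcs1 was at 1.16 (SE 0.62, adjusted p = 0.565, edgeR) and Lss at 0.81 (SE 0.46, 0.585). Without heterozygous male 2 the median was 0.36, without homozygous male 1 it was 0.50 and without wild-type male 1 it was 0.56.

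The single homozygous female was set against the 3 homozygous males, using all 10 libraries to estimate the spread and assuming that this lone animal varies as the males do. In 7 of 7 members it lay within the range of the homozygous males, and in 6 of 7 within that of the wild-type males. The exception was Insig1, at 223 CPM against 252 to 374 CPM in wild-type males. The log2 differences ran from -0.68 for Hmgcs1 (SE 1.09, adjusted p = 0.886, edgeR) to 0.13 for Lss (SE 0.77, 0.980). The difference was negative in 4 of 7 members and in 51.7% of all genes. None passed, against 0.0772% of 12954 genes, and 0 of 7 members against 10.3% of all genes were under an unadjusted p of 0.05. DESeq2 called 100 genes and limma-voom 15, with no member. The direction turned with the animal left out and with the tool. Without homozygous male 1 all 7 differences were negative, with a median of -0.71, whereas without homozygous male 2, 1 of 7 was negative, with a median of 0.42. With limma-voom 1 of 7 was negative, with a median of 0.37, against 4 of 7 and -0.19 in edgeR.

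The other enzymes of cholesterol synthesis were read from pathway lists. Of 18 synthesis genes that are not members 16 had a negative estimate in homozygous over wild-type males (median log2 fold change -0.64), 17 a negative one in homozygous over heterozygous males (median -0.90), and 16 a positive one in heterozygous over wild-type males (median 0.23). None of the 18 passed in edgeR or limma-voom in any of these comparisons. DESeq2 called 1 of them, Sc5d, in homozygous over heterozygous males (log2 fold change -1.26, adjusted p = 0.0352). Among all genes DESeq2 called 515 of 16474 in that comparison. Among the smallest p values against wild type were those of Ebp, a sterol isomerase (-0.42, SE 0.19, adjusted p = 0.343, edgeR), Sc5d, a sterol desaturase (-0.80, SE 0.41, 0.393), Erg28 (-0.48, SE 0.25, 0.393) and Fdps, the farnesyl-diphosphate synthase (-1.50, SE 0.80, 0.406), and against heterozygotes those of Sc5d (-1.25, SE 0.41, 0.190), Erg28 (-0.71, SE 0.25, 0.205), Hsd17b7 (-0.85, SE 0.30, 0.215) and mevalonate kinase Mvk (-1.58, SE 0.58, 0.220). Of all 23 synthesis genes, members included, 9 did not overlap between homozygous and heterozygous males, each lower in homozygotes, against 11.7% of all genes. Between homozygous and wild-type males 0 of 23 were without overlap, against 20.8% of all genes. Between heterozygous and wild-type males it was 0 of 23, against 10.4%. Without homozygous male 1 the estimate was negative in 19 of 23 against wild type (median -0.31, against -0.67 with it) and in 21 of 23 against heterozygotes (median -0.70, against -1.20 with it). Without wild-type male 1, 12 of 23 were positive in heterozygotes over wild types, against 21 of 23 with it.

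Sc5d, which acts after the members in the pathway, had 125, 456 and 367 CPM in homozygous males 1 to 3, 319 CPM in the homozygous female, 632, 1020 and 612 CPM in heterozygous and 454, 630 and 570 CPM in wild-type males. The homozygous and heterozygous males did not overlap. Ggps1, which makes a longer isoprenoid, and Lbr, a sterol reductase of the nuclear membrane, varied little: over the 10 libraries the highest was 1.36 times the lowest for Ggps1 and 1.67 times for Lbr.

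**Figure D3:**
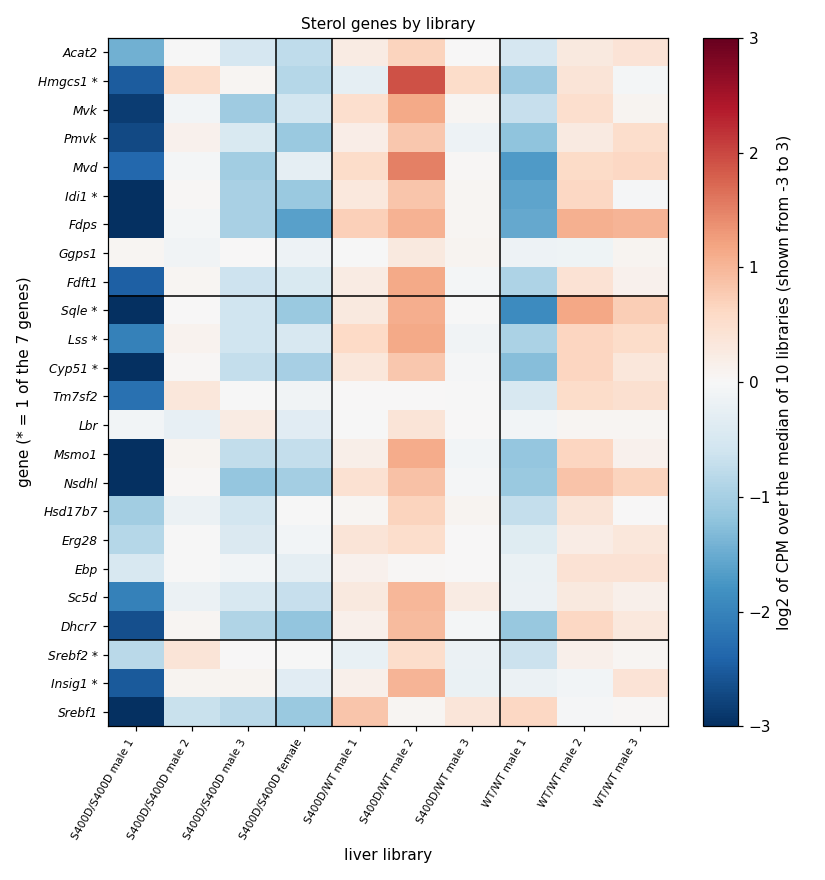
Log2 of CPM over the median of the 10 libraries for 21 synthesis genes (above the second line) and 3 regulators, with libraries in columns by group and * at members. Homozygous male 1 is the darkest blue column, wild-type male 1 is blue for most synthesis genes, heterozygous male 2 is red for most of them, and Ggps1 and Lbr stay near 0.

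Genes of sterol sensing and uptake did not all follow. Of 14 genes of SREBP processing and sterol sensing, Srebf2 and Insig1 among them, 6 had a negative and 8 a positive estimate in homozygous over wild-type males (median 0.01), and 50.7% of all genes were positive. Erlin1, an endoplasmic reticulum membrane protein, had the smallest p: 25.0, 32.6 and 28.1 CPM in homozygous, 53.0, 44.9 and 47.0 CPM in heterozygous and 44.8, 59.9 and 43.6 CPM in wild-type males. Homozygous males lay below both other groups without overlap, at -0.79 against wild type (SE 0.15, adjusted p = 0.147, edgeR) and -0.76 against heterozygotes (SE 0.15, 0.104), and neither passed in edgeR. DESeq2 called Erlin1 in both comparisons (adjusted p = 0.00158 against wild type and 0.00221 against heterozygotes). Among 16474 genes it called 310 against wild type and 515 against heterozygotes. Srebf1, which encodes the SREBP of fatty acid synthesis, had 35.1, 198 and 179 CPM in homozygous, 557, 326 and 405 CPM in heterozygous and 483, 303 and 322 CPM in wild-type males (against wild type -1.43, SE 0.53, adjusted p = 0.277). In Srebf1, unlike in the members, wild-type male 1 was the highest wild type.

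Of 11 tested genes of sterol uptake and transport 5 had a negative and 6 a positive estimate in homozygous over wild-type males (median 0.08). Scarb1, the HDL receptor, had the smallest p of this list, with 231, 224 and 224 CPM in homozygous, 147, 162 and 160 CPM in heterozygous and 194, 177 and 171 CPM in wild-type males (against heterozygotes 0.54, SE 0.10, adjusted p = 0.104). Among 9 genes of export, esterification and sterol sensing by LXR, 7 had a positive estimate in homozygous over wild-type males (median 0.07), and Lcat, which esterifies plasma cholesterol, had the smallest p (0.31, SE 0.13, 0.305). No gene of these lists passed in edgeR or limma-voom in any comparison of males. Besides Erlin1, DESeq2 called Scarb1 against wild type (0.32, adjusted p = 0.019) and against heterozygotes (0.53, 2.6e-06), with heterozygotes below the midpoint (-0.37, 0.00174). Against heterozygotes it also called Lcat (0.52, 0.00826) and Lrp1, a receptor for remnant lipoproteins (0.31, 0.00705). Beside these stand 310 of 16474 genes called against wild type, 515 against heterozygotes and 69 for heterozygotes against the midpoint.

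Other genes of the 10 libraries were ranked by how closely they followed the mean scaled profile of the members, among the 9239 genes that averaged 5 CPM or more. The 8 closest genes, by Pearson's r over 10 libraries, were Msmo1 (0.988), Fdft1 (0.988), Pmvk (0.981), Mmab (0.972), Dhcr7 (0.969), Nsdhl (0.963), Gm38481 (0.955) and Gstm7 (0.953). Without homozygous male 1 and wild-type male 1 they were at 0.966, 0.956, 0.929, 0.924, 0.947, 0.861, 0.924 and 0.782, in the same order. Of the 20 closest genes 11 belong to the sterol lists. Mmab encodes an enzyme of cobalamin metabolism and lies next to Mvk on chromosome 5 (114431034 to 114444073, and Mvk from 114444264 to 114460591). It had 9.88, 35.8 and 26.9 CPM in homozygous males, 26.5 CPM in the female, 40.2, 61.0 and 36.7 CPM in heterozygous and 25.8, 39.6 and 32.8 CPM in wild-type males.

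Fatty acid synthesis, which SREBP1c drives, differed from the members in which animals were high. The sum of 14 of its genes was 918, 8430 and 6100 CPM in homozygous males, 4570 CPM in the homozygous female, 11200, 6950 and 13500 CPM in heterozygous and 7190, 10300 and 16400 CPM in wild-type males. Homozygous male 1 was lowest here too, and wild-type male 1 was again the lowest wild type. However, heterozygous male 2 was the lowest heterozygote, where it was the highest for the members. Scd1 alone made up 5850, 3390 and 8540 CPM of the heterozygous sums. Most of the 14 genes were lowest among heterozygotes in male 2, but Acly (416 CPM) and Acss2 (423 CPM) were highest there. Between homozygous and heterozygous males 10 of these 14 genes did not overlap, each lower in homozygotes, against 1 of the 7 members and 11.7% of all genes. Between homozygous and wild-type males it was 8 of 14, each lower in homozygotes, against 0 of the 7 members and 20.8% of all genes. None of the 14 passed an adjusted p of 0.05 in edgeR in either comparison. Fasn, the fatty acid synthase, had 68.5, 321 and 301 CPM in homozygous, 1080, 658 and 728 CPM in heterozygous and 380, 717 and 900 CPM in wild-type males.

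Clock genes differed between the libraries as well. Arntl, which encodes the clock activator BMAL1, had 17.4, 26.1 and 38.1 CPM in homozygous males, 1.59 CPM in the homozygous female, 1.17, 31.5 and 2.59 CPM in heterozygous and 2.64, 2.45 and 4.25 CPM in wild-type males. Dbp, a clock output gene, had 4.63, 12.9 and 1.27 CPM in homozygous males, 205 CPM in the female, 247, 6.02 and 105 CPM in heterozygous and 128, 148 and 158 CPM in wild-type males. The 4 libraries with high Arntl and low Dbp hold both the lowest sum of the members, in homozygous male 1, and the highest, in heterozygous male 2. The 2 lowest sums, in homozygous male 1 and wild-type male 1, come from 1 library of each kind. Arntl was higher and Dbp lower in all 3 homozygous males than in every wild-type male. Clock state and genotype therefore cannot be told apart in that comparison. The homozygous female had lower Arntl and higher Dbp than every homozygous male, so clock state and sex cannot be told apart there either. Among heterozygous males only male 2 had high Arntl and low Dbp. Clock state is therefore also unevenly spread in the comparisons of heterozygous with homozygous and with wild-type males. The part of the clock difference in the members' levels was not tested.

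**Figure D4:**
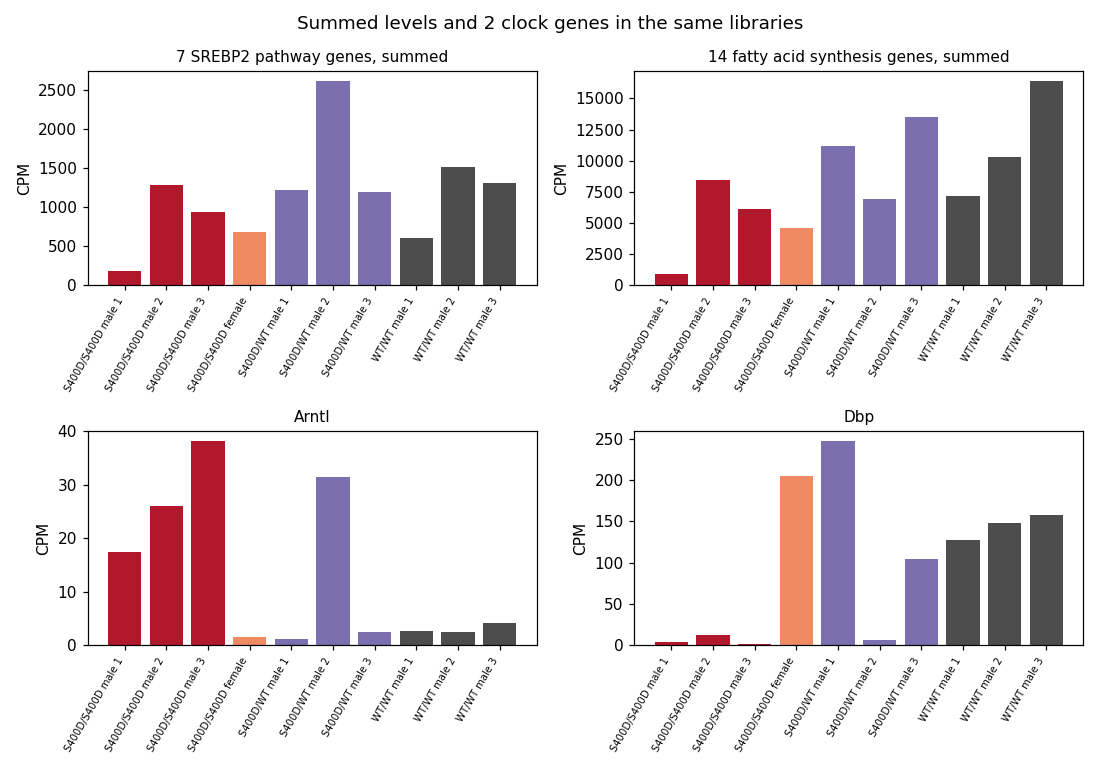
Level in each of the 10 libraries, in CPM from 0, of the 7 members summed, of 14 fatty acid synthesis genes summed, and of the clock genes Arntl and Dbp. Homozygous male 1 (177 CPM) and heterozygous male 2 (2620 CPM) are the ends of the members' sum, and both have high Arntl and low Dbp.

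Markers of other cells were read beside the members. Sums of 11 macrophage markers were 472, 513 and 506 CPM in homozygous males, 500 CPM in the female, 225, 431 and 522 CPM in heterozygous and 560, 225 and 177 CPM in wild-type males. Sums of 9 sinusoidal endothelial markers were 300, 299 and 304 CPM in homozygous males, 227 CPM in the female, 185, 249 and 275 CPM in heterozygous and 315, 130 and 142 CPM in wild-type males. Both sums were highest among wild types in wild-type male 1, whose members were lowest, while the 3 homozygous males were nearly equal in them and spanned 177 to 1280 CPM in the members. The other lists were summed too: 8 stellate markers at 109 to 445 CPM, 6 cholangiocyte markers at 24.4 to 46.0 CPM, 6 lymphocyte markers at 1.49 to 4.96 CPM and 4 adipocyte markers at 0 to 1.58 CPM. Sums of 5 erythroid markers were 1980 CPM in wild-type male 1, 1730 CPM in heterozygous male 3 and 161 to 502 CPM in the other 8. The part of these cells in the members' levels was not tested.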

How the data were processed

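Liver RNA of 10 mice was purified on oligo(dT) beads, fragmented and primed with random hexamers, per the labels' protocols. The authors deposited, for 77712 RefSeq transcripts, expected counts (estimated reads, unscaled), FPKM (scaled by the authors to length and library total) and TPM (scaled by the authors to a fixed sum). HISAT, Bowtie2 and the build GRCm38.p6 are named in the submitters' processing notes; their roles and versions, and the counting program, are not given in these sources.

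Transcripts were summed to 19271 genes (19214 matched to RefSeq), and the sums were rounded. Nonzero sums were whole within 0.05 in 94.6% of cases. The main test was edgeR 4.0.16 (R 4.3.3), quasi-likelihood, with TMM, edgeR's filter by group, genotype as the only term and Benjamini-Hochberg adjustment over all genes tested (threshold 0.05). The 9 males gave 12427 genes and 6 residual degrees of freedom, and the female was compared in a fit of 10 libraries (12954 genes). The script was tested on simulated data. Log2 levels for likeness used a prior count of 2. SE was worked back from the edgeR test, as the absolute log2 fold change over the square root of its F statistic. Levels in CPM use the factors of the fit of 10 libraries.

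Alternatives were DESeq2 1.42.0, limma 3.58.1 (voom, and trend on log2(FPKM + 1) or log2(FPKM + 0.1) with at least 1 FPKM in 3 libraries), DESeq2 size factors, library size alone, other filters, a replicate block, other sample sets and omission of each male. Genes named were the 7 members, the 3 smallest p per sterol list in homozygous against wild-type and against heterozygous males (of which some are given), genes set beside them (Srebf1, Fasn, Arntl, Dbp) and the 8 most alike; Ggps1 and Lbr were named after their values were seen. Members and lists were chosen with earlier results of these data known. Lists were described by counts and medians only, and some of their genes are not reported here. Promoter sequences are RefSeq's (GRCm38.p6); Sqle was not in that table.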

Additional observations from a re-analysis of the deposited data

How the results depend on the processing

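Between genotypes no member passed under any alternative, DESeq2 included. Numbers of genes called over the whole table moved with the tool: DESeq2 called 310 in homozygous against wild-type males, 515 in homozygous against heterozygous, 7 in heterozygous against wild-type, 69 for heterozygotes against the midpoint and 100 for the female, where edgeR called 0, 0, 0, 0 and 10. With at least 1 CPM in 3 libraries the female comparison had 5. Leaving out 1 male at a time gave 0 to 18 genes in homozygous against wild-type males (18 without wild-type male 1, 2 without homozygous male 2) and 0 to 6 against heterozygotes (6 without homozygous male 2).

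Directions that turned were all of members that did not pass. In homozygous against wild-type males Hmgcs1 was 0.04 with library size alone. With 1 male left out, the range there was -0.58 to 0.44 for Hmgcs1, -0.24 to 0.31 for Srebf2 and -0.77 to 0.01 for Insig1. In heterozygous against wild-type males it was -0.44 to 0.56 for Sqle, -0.10 to 0.33 for Srebf2, -0.09 to 0.59 for Insig1 and -0.09 to 0.66 for Cyp51. Srebf2 ranged from -0.42 to 0.15 in homozygous against heterozygous males and from -0.13 to 0.30 against the midpoint. In the female against homozygous males limma-voom gave 0.77 for Sqle, 0.58 for Idi1 and 0.35 for Cyp51, and with 1 male left out the range was -0.86 to 0.42 for Sqle, -0.23 to 0.32 for Srebf2, -0.43 to 0.36 for Insig1, -0.73 to 0.71 for Idi1, -0.26 to 0.66 for Lss and -0.71 to 0.51 for Cyp51. The cause was not tested.

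Over the 12427 genes tested, the replicate numbers of the labels did not pair the samples (correlations of same-numbered deviations from -0.438 to 0.195). In the members' sum, however, replicate 2 was the highest male of each group. It had 1280 CPM in homozygous, 2620 CPM in heterozygous and 1510 CPM in wild-type males. With the number as a replicate block 0 members and 0 genes were called, but in 3 of 4 comparisons more members were under an unadjusted p of 0.05 than the 0 without it. In homozygous against heterozygous males there were 5 of 7 members against 14.9% of all genes, for heterozygotes against the midpoint 4 of 7 against 7.94%, in heterozygous against wild-type males 1 of 7 against 3.35%, and in homozygous against wild-type males 0 of 7 against 12.8%. The members moved together (median Pearson's r 0.889 over 10 libraries), so these are not counts of independent genes. The block also takes up the same high values of replicate 2, and no conclusion is drawn from it. The members' median was -0.91 in homozygous against wild-type males, -1.45 against heterozygotes, and 0.62 in heterozygous against wild-type males. The members' levels rest on 38 to 17932 reads, and the 3 libraries of 1 group differed by up to 32.9-fold.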
